A study of Mus musculus with 6 samples.

Results

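The genes described here are 10 regulators of endocrine cell formation in the pancreas. They comprise the transcription factors Neurog3, Fev, Sox4, Sox11 and Sox9, the receptors Notch1 and Notch2, the ligands Dll1 and Jag1, and the Notch target Hes1. They were taken by gene symbol from the 47643 genes with deposited counts, and all 10 were found and passed the filter on low counts. Messenger RNA was sequenced from pancreatic islets, small groups of endocrine cells that release insulin, glucagon and other hormones. The islets came from wild-type mice (WT, 3 libraries) and from mice that carry a transgene for the microRNA miR-203 specific to beta cells (TG, 3 libraries). The labels give all mice as males of 10 weeks, fasted for 12 h. The first set of deposited tables holds WT 1, WT 2, TG 1 and TG 2, and the second holds WT 3 and TG 3. The promoter of the transgene, the strain, and whether each library came from its own animal are stated in none of the sources used here. The p-values therefore measure only the spread between these libraries, which may be partly technical.

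Endocrine cells of the embryonic pancreas arise from an epithelium of SOX9-positive progenitors that switch on Neurog3 for a short time. Notch signalling restrains that step: a DLL or JAG ligand on a cell binds a NOTCH receptor on its neighbour, the receptor is cut, and its inner part joins RBPJ to switch on Hes1, whose product represses Neurog3. Cells that escape this repression express Neurog3, then factors such as Fev, and become hormone-secreting cells. The SoxC genes Sox4 and Sox11 are also among the regulators of this process. In adult islets Neurog3 is low, and Sox9 is mainly a gene of duct cells.

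Total counts ran from 20176456 to 27482339 per library. The Mir203 locus, which checks the genotype labels, had 170, 164 and 150 counts in TG 1, TG 2 and TG 3 and 0 in WT 2 and WT 3, but 39 in the library labelled WT 1. Xist, a long RNA that coats the inactive X chromosome of females, had 4 to 13 counts in the first set and 25145 and 27240 in WT 3 and TG 3, which goes against their label as male. That difference follows the set of tables, which is a term of the fit below and is called the table. Summed beta-cell markers, among them Ins1, Ins2, Mafa and Ucn3, reached 117163 to 238368 CPM (counts scaled to library size, with values below given in the order of library numbers) in WT. The low end of that range was WT 3. TG 2, at 224372 CPM, lay within the range but below WT 1 and WT 2 of its own table, at 238368 and 230779 CPM. TG 1 and TG 3 lay below the range at 56423 and 54720 CPM. By their counts the closest pair of libraries was WT 1 and TG 2 (chi-square 31.6 per degree of freedom), closer than WT 1 and WT 2 (42.4), whereas TG 1 and TG 2 were at 335. In such bulk RNA, fewer cells of a type and less RNA per cell cannot be told apart.

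The comparison of TG with WT asks which of these regulators differ in islets whose beta cells carry the miR-203 transgene. Of the 10 genes, 8 had a higher and 2 a lower fitted level in TG, with all 5 progenitor transcription factors among the higher. Over all genes tested, 48.1% were fitted higher and 51.9% lower. Fev, Sox4 and Sox11 lay furthest from WT, with fitted levels 2.47, 2.15 and 2.72 times those of WT. None of the 10 passed the threshold, a Benjamini-Hochberg adjusted p under 0.05 in edgeR's quasi-likelihood test with the table as a term. That test called 0 of 16072 genes (0.0%). At an unadjusted p under 0.05 it had 3 of the 10 genes, Fev, Sox4 and Sox11, all higher, where 9.32% of all genes were higher and 4.81% lower at that level (14.1% in all). DESeq2 called 1 of the 10, Sox4, and 4.68% of all genes (3.83% higher and 0.846% lower). Without the low-count filter edgeR called 3 of the 10, again Fev, Sox4 and Sox11, and 5.62% of the 29725 genes with a count (4.37% higher and 1.25% lower). Among the 16072 genes that pass the filter, as all 10 do, that fit called 9.31% (7.12% higher and 2.2% lower). Over the 17 alternatives to the fit, the adjusted p of these 3 genes ran from 1.47e-06, 1.17e-06 and 0.0151 without that filter to 0.9999 with duct markers as a covariate. In contrast, limma-voom called 0 of the 10 and 0 of all genes (13.9% of all genes, and 2 of the 10, Sox4 and Sox11, at an unadjusted p under 0.05). The median log2 fold change of the 10 genes was 0.46, against -0.01 over all genes tested.

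**Figure D1:**
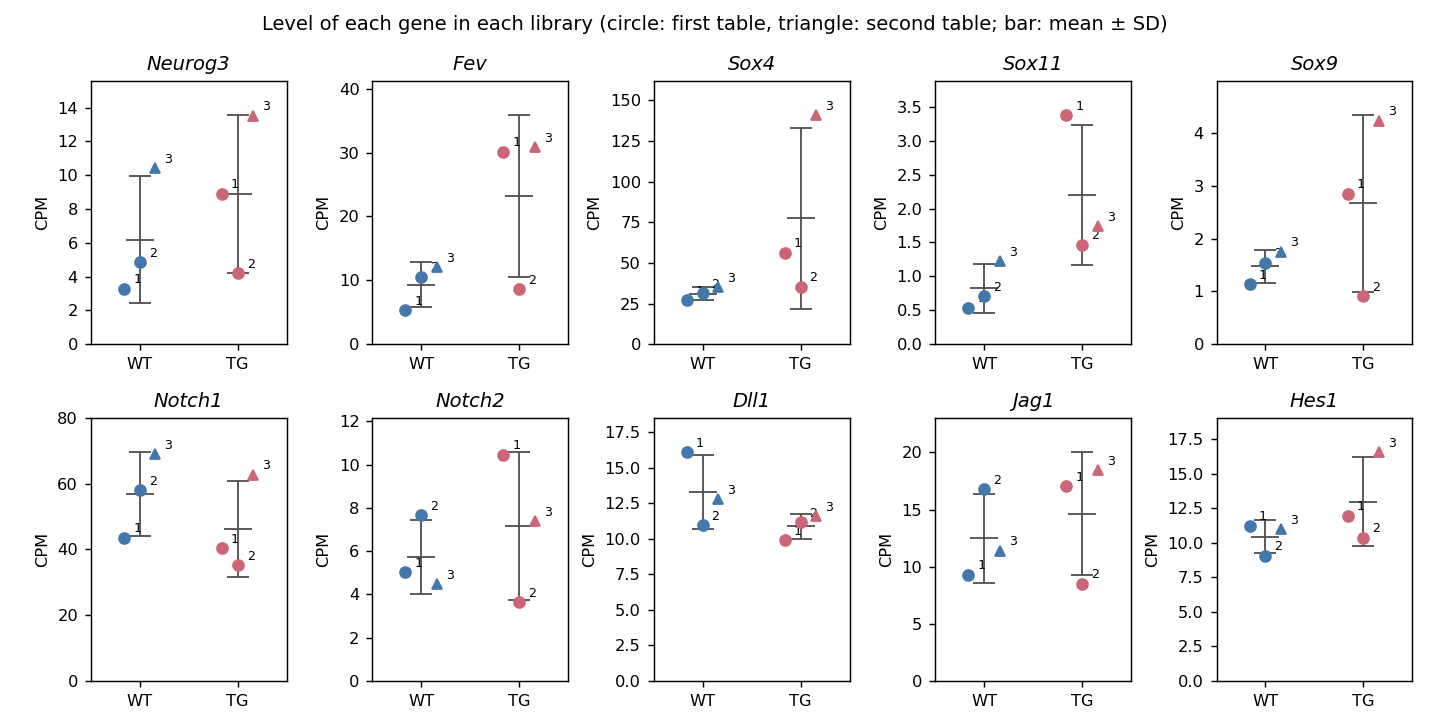
Level of each of the 10 genes in CPM (vertical axis, starting at 0) in the 3 WT (blue) and 3 TG (red) libraries, numbered by library, with circles for the first table, triangles for the second, and bars for the mean ± SD. TG 1 and TG 3 stand above the WT libraries for Fev, Sox4, Sox11 and Sox9, whereas TG 2 overlaps the WT libraries for Fev and lies below all of them for Sox9, Notch1, Notch2 and Jag1.

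Sox4 encodes a SoxC factor needed for normal endocrine cell formation. The gene (ENSMUSG00000076431) spans 28948919 to 28953713 of chromosome 13 (GRCm38, as for all positions here), minus strand. It was at 27.04, 31.2 and 34.9 CPM across WT 1 to WT 3, and at 56.2, 35.3 and 141 CPM across TG 1 to TG 3. The groups did not overlap, but the 95% exact Poisson intervals of WT 3 (32.5 to 37.4 CPM) and TG 2 (33.0 to 37.7 CPM) did, so the gap between those libraries was not resolved at this depth. TG averaged 77.4 ± 55.8 CPM and WT 31.0 ± 3.93 CPM (SD, n = 3). The log2 fold change was 1.10 (SE 0.32, 95% interval 0.34 to 1.87), and the adjusted p was 0.244 in edgeR. DESeq2 gave an adjusted p of 0.0210. Sox4 was also called in edgeR without TG 2, at a log2 fold change of 1.41 (adjusted p = 0.0127). In the first table alone the value was 0.65 (adjusted p = 0.933). Without WT 3 it was 0.65, but the table term then takes up TG 3, so that fit rests on the first table too. The TG effect in the second table exceeded that in the first by 1.36 log2 units (SE 0.45, unadjusted p = 0.0247), but 2.28% of all genes had such a p in the interaction test of edgeR and 0 passed after adjustment. Sox4 shares 2616 of its 4795 annotated exon bases with Gm26735 on the opposite strand, which had 0 counts in every library. How reads in the shared bases were counted is stated in none of the sources used here.

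Sox11, the other SoxC gene here (ENSMUSG00000063632, chromosome 12, 27334264 to 27342574, minus strand), had the lowest level of the 10 per length. It had 10, 16 and 28 counts across WT 1 to WT 3 and 97, 37 and 42 across TG 1 to TG 3. These were 0.540, 0.704 and 1.23 CPM in WT and 3.37, 1.47 and 1.74 CPM in TG. Every TG library lay above every WT library. The counting intervals of WT 3 (0.814 to 1.77 CPM, 95% exact Poisson) and TG 2 (1.03 to 2.02 CPM) nonetheless overlapped, so at this depth the gap between those libraries was not resolved. Sox11 had a log2 fold change of 1.44 (SE 0.49, 95% interval 0.28 to 2.61, adjusted p = 0.277 in edgeR). Without TG 1 it was 0.90 (adjusted p = 0.546), and in the first table alone it was 1.95 (adjusted p = 0.914). Sox4 and Sox11 were the 2 genes of the 10 with every TG library above every WT library, a pattern that 6.96% of all genes tested showed. They were likewise the 2 with each TG library above WT within its own table (13.0% of all genes). None of the 10 had every TG library below every WT library (6.42% of all genes).

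Fev encodes an ETS factor of late endocrine progenitors, known also as Pet1 for its part in serotonin neurons. The gene (ENSMUSG00000055197) lies on chromosome 1 at 74881509 to 74885419, on the minus strand. Fev was at 5.34, 10.6 and 12.0 CPM across WT 1 to WT 3 and at 30.2, 8.61 and 30.8 CPM across TG 1 to TG 3. TG 1 and TG 3 were far above all WT libraries, and TG 2 sat between WT 1 and WT 2. TG averaged 23.2 ± 12.6 CPM against a WT mean of 9.31 ± 3.52 CPM (SD, n = 3), and the log2 fold change was 1.31 (SE 0.47, 95% interval 0.18 to 2.43, adjusted p = 0.297 in edgeR). Fev passed without TG 2, at 1.67 (adjusted p = 0.0126 in edgeR). It did not pass in DESeq2 (0.0728), in the first table alone (1.28, adjusted p = 0.966), without TG 1 (0.67, adjusted p = 0.643) or without WT 1, the WT library with Mir203 reads (1.09, adjusted p = 0.540).

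Neurog3, the bHLH factor that commits progenitors to the endocrine fate, was detected in every library, with 61 to 326 counts. The gene (ENSMUSG00000044312) lies on chromosome 10 at 62133090 to 62134763, on the plus strand. Its levels were 3.29, 4.84 and 10.4 CPM across WT 1 to WT 3 and 8.90, 4.21 and 13.5 CPM across TG 1 to TG 3. The genotypes overlapped, and both libraries of the second table were higher than the mean of their genotype. Its log2 fold change was 0.58 (SE 0.33, 95% interval -0.21 to 1.37, adjusted p = 0.471 in edgeR). It was 0.20 without TG 1 and 0.79 without TG 2, and neither passed. Neurog3 shares 273 of its 1674 annotated exon bases with Fam241b on the opposite strand, which had 544 to 1036 counts. Since no source used here gives the strand setting of the counting, part of the Neurog3 counts may belong to that neighbour.

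Sox9, the factor of progenitors and duct cells, followed TG 1 and TG 3. The gene (ENSMUSG00000000567, chromosome 11, 112782224 to 112787760, plus strand) was at 1.13, 1.54 and 1.75 CPM in WT and at 2.85, 0.913 and 4.23 CPM across TG 1 to TG 3. TG 1 and TG 3 had the highest levels of the 6 libraries, and TG 2 the lowest. TG 2 had 23 counts and WT 1 had 21. Their 95% exact Poisson intervals overlapped widely (0.579 to 1.37 and 0.702 to 1.73 CPM), so the order of these libraries was not resolved. The log2 fold change was 0.76 (SE 0.47, 95% interval -0.36 to 1.89, adjusted p = 0.502 in edgeR), with 1.16 without TG 2 (adjusted p = 0.0483) and 0.33 without TG 1 (adjusted p = 0.875). Fev, Sox4 and Sox9 were thus 3 of the 10 genes called without TG 2, in a fit that called 13.2% of all genes, 8.82% as higher and 4.39% as lower.

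Notch1, a receptor of the pathway (ENSMUSG00000026923, chromosome 2, 26457903 to 26516663, minus strand), had one of the 2 lower fitted levels in TG. It was at 43.6, 58.0 and 69.0 CPM across WT 1 to WT 3 and at 40.3, 35.2 and 62.8 CPM across TG 1 to TG 3. Within its own table each TG library lay below WT, which was so in 13.4% of all genes, but the genotypes overlapped across tables. The 95% exact Poisson intervals of TG 1 (38.0 to 42.7 CPM) and WT 1 (40.6 to 46.7 CPM) overlapped. Those of TG 3 (59.6 to 66.0 CPM) and WT 3 (65.6 to 72.5 CPM) overlapped only at their ends. Such an overlap alone does not decide whether a gap lies within counting error, and these gaps were not tested. TG differed from WT by a log2 fold change of -0.33 (SE 0.16, 95% interval -0.71 to 0.05, adjusted p = 0.406 in edgeR), with values between -0.43 (without WT 3) and -0.17 (without WT 2). Notch1 shares 1068 of 14232 exon bases with 0610009E02Rik on the opposite strand, which had 28 to 67 counts.

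Notch2, the second receptor (ENSMUSG00000027878, chromosome 3, 98013527 to 98150361, plus strand), was at 5.02, 7.66 and 4.47 CPM in WT and at 10.5, 3.65 and 7.39 CPM across TG 1 to TG 3. TG 2 was the lowest of the 6 libraries and TG 1 the highest, but the 95% exact Poisson intervals of TG 2 (2.94 to 4.48 CPM) and WT 3 (3.64 to 5.42 CPM) overlapped. For Notch2 the log2 fold change was 0.34 (SE 0.42, 95% interval -0.65 to 1.34, adjusted p = 0.749 in edgeR). It was -0.12 without TG 1 and 0.72 without TG 2, and neither value passed (adjusted p = 0.955 and 0.101).

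Dll1, the Delta ligand that Neurog3-positive cells present to their neighbours, was the steadiest gene across TG libraries. The gene (ENSMUSG00000014773, chromosome 17, 15367354 to 15376872, minus strand) was at 16.1, 10.96 and 12.8 CPM in WT and at 9.88, 11.2 and 11.6 CPM across TG 1 to TG 3. The coefficient of variation, the SD as a percentage of the mean, was 8.16% in TG and 19.6% in WT. The fitted log2 fold change was -0.29 (SE 0.21, 95% interval -0.79 to 0.21, adjusted p = 0.568 in edgeR), and without WT 1, the highest library, it was -0.08 (adjusted p = 0.941). Dll1 shares 867 of 4219 exon bases with A930024N18Rik on the opposite strand, which had 36 to 49 counts.

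Jag1, a Jagged ligand that is also expressed by duct and vessel cells (ENSMUSG00000027276, chromosome 2, 137081456 to 137116644, minus strand), was at 9.28, 16.8 and 11.4 CPM in WT. It was at 17.0, 8.49 and 18.4 CPM across TG 1 to TG 3. WT 2 came close to TG 1. TG 2 was the lowest library, but its 95% exact Poisson interval (7.39 to 9.71 CPM) overlapped that of WT 1 (7.95 to 10.8 CPM). The log2 fold change of 0.21 (SE 0.35, 95% interval -0.63 to 1.05, adjusted p = 0.822 in edgeR) was -0.03 without TG 1 and in the first table alone, and 0.56 without WT 2.

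Hes1, the repressor that Notch signalling switches on (ENSMUSG00000022528, chromosome 16, 30064384 to 30067796, plus strand), was at 11.2, 9.06 and 10.99 CPM in WT. It was at 12.0, 10.4 and 16.6 CPM across TG 1 to TG 3. TG 3 was the highest library, and TG 2 lay within the WT range. The log2 fold change was 0.29 (SE 0.20, 95% interval -0.18 to 0.77, adjusted p = 0.545 in edgeR). Leaving out single libraries moved it between 0.13 (without WT 3) and 0.44 (without WT 1).

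**Figure D2:**
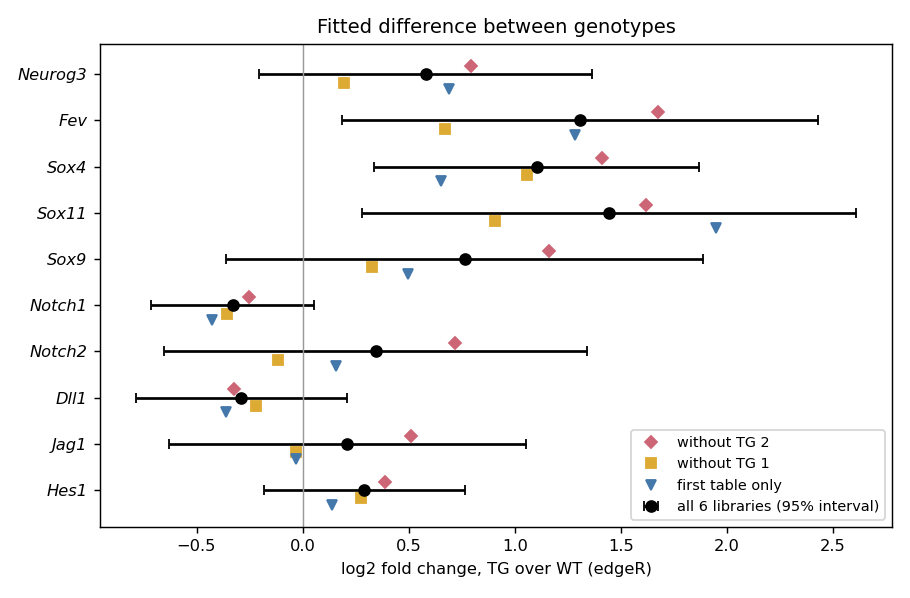
Log2 fold change of TG over WT for the 10 genes, with the 95% interval of the edgeR fit on all 6 libraries (black) and the fitted values without TG 2 (red), without TG 1 (yellow) and in the first table alone (blue). The intervals of Fev, Sox4 and Sox11 lie above 0 before adjustment, and those of the other 7 genes include 0.

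The TG libraries did not move as a unit. Relative to the mean log2 level of the WT libraries in its own table, the median progenitor factor lay at 1.14, 0.19 and 1.23 log2 units in TG 1, TG 2 and TG 3. The median of the 5 Notch genes lay at 0.24, -0.51 and 0.59. WT 1 and WT 2 themselves lay at -0.21 and 0.21 for both groups. TG 2 was thus within the spread of the WT libraries for the median progenitor factor and below it for the median Notch gene. Fev stood at 1.99, 0.19 and 1.35 log2 units in TG 1, TG 2 and TG 3, and Sox4 at 0.95, 0.28 and 2.01. Sox11 stood apart from this order, with TG 3 the closest to its WT level (2.30, 1.147 and 0.48).

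**Figure D3:**
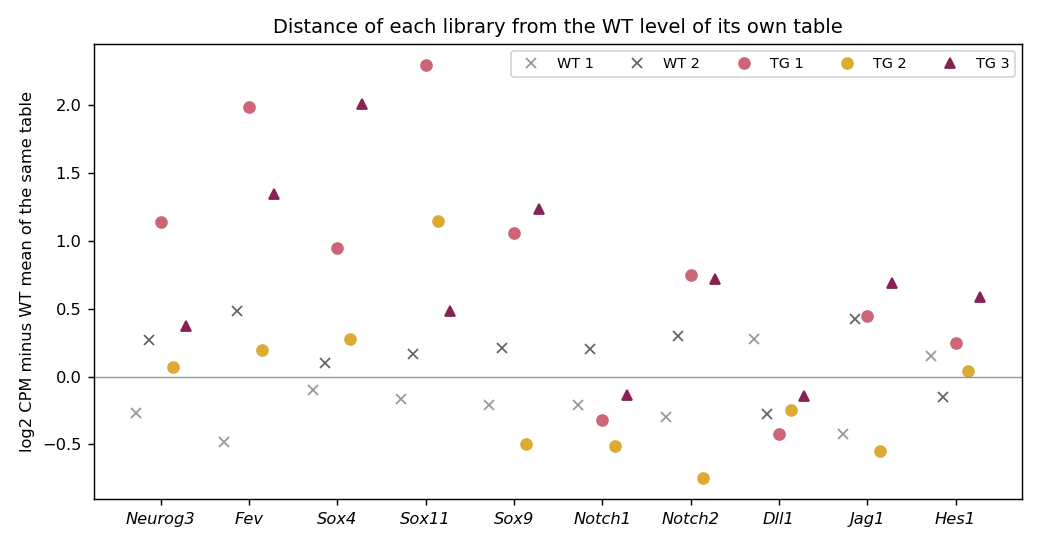
Log2 CPM of each gene in each library minus the mean of the WT libraries of the same table, with crosses for WT 1 and WT 2, circles for TG 1 and TG 2, and triangles for TG 3. WT 3 defines 0 in the second table and is not drawn, and TG 2 lies below the WT mean for 5 genes, Sox9, Notch1, Notch2, Dll1 and Jag1.

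Per kilobase of gene length, Sox4 and Fev had the highest WT means of the 10, at 6.47 ± 0.819 and 5.76 ± 2.17 CPM per kilobase (SD, n = 3). Hes1 followed at 5.12 ± 0.582, Neurog3 at 4.02 ± 2.43, Notch1 at 3.995 ± 0.896 and Dll1 at 3.15 ± 0.616 CPM per kilobase. Among these genes and Jag1, at 2.14 ± 0.666, no neighbours in the order were separated in every WT library. Notch2 (0.530 ± 0.158) and Sox9 (0.357 ± 0.0759) were below Jag1 in every WT library, and Sox11 (0.0990 ± 0.0431) was below both in each. In TG the order was the same, with Sox4 at 16.1 ± 11.6 and Fev at 14.3 ± 7.81 CPM per kilobase.

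A microRNA pairs with messages mainly through its seed, bases 2 to 8, so the 3′ UTRs of the 10 genes were searched for the seed match of miR-203. The 3p arm is shown because its seed sets the search, with the seed in capitals. It lies at chr12:112130927-112130948 of GRCm38.p6, on the plus strand, in RefSeq.
mmu-miR-203-3p: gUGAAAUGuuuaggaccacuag
The match to the whole seed, CATTTCA on the message strand, was in the 3′ UTR of 0 of the 10 genes, where 17.3% of 13851 tested genes with an annotated 3′ UTR hold it. The 3′ UTRs searched run from 368 bases in Hes1 to 6957 bases in Sox11, against a median of 1181 over the tested genes. The shorter match ATTTCAA, to bases 2 to 7 followed by an A, was in 1 of the 10, Sox9, and in 12.5% of tested genes where no C precedes it. The Sox9 match is shown because it is that gene's, with the match in capitals, and the printed bases lie at chr11:112786273-112786301 on the plus strand.
Sox9 site: caggctcttggATTTCAAgagtagctgcc
A match is a description of letters, and its absence says only that these letters are not in the annotated 3′ UTR. The arm that the transgene yields was not measured here.

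The promoters of Fev, Sox4 and Sox11, the genes with the smallest p of the 10, are shown as the 250 bases before the RefSeq start of GRCm38.p6, each on the minus strand, 5′ to 3′. They were searched on both strands for TGGGAA, the core that RBPJ binds, and for CACNAG, the N-box that HES factors bind, and both are in capitals.
Fev, chr1:74885409-74885658: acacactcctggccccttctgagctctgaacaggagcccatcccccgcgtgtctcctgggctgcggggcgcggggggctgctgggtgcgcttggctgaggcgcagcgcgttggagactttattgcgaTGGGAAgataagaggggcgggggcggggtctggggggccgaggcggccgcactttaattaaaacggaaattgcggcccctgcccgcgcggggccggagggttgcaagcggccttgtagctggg
Sox4, chr13:28953700-28953949: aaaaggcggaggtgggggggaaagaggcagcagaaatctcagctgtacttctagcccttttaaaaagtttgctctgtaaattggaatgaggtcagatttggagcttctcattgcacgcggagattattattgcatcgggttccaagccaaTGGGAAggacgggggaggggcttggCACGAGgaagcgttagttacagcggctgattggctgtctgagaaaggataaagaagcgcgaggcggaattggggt
Sox11, chr12:27342719-27342968: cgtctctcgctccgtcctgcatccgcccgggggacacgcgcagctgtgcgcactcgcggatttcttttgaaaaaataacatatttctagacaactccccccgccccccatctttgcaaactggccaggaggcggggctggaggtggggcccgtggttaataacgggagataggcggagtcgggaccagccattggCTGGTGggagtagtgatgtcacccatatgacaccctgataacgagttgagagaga
TGGGAA begins at position -123 in Fev and -100 in Sox4, counted from the start, and 21.6% of 32851 promoter windows of this length hold it. CACNAG, or its reverse complement, is in Sox4 and Sox11, and 36.7% of windows hold it. The 2 motifs do not overlap in these promoters. Of the 10 genes, 8 had a promoter in the RefSeq table, and Hes1 and Sox9 had none. Neurog3 had 0 of either motif in its window, and Notch1 and Notch2 had 1 CACNAG each.

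None of the other Notch pathway genes tested passed in edgeR over all genes. Among the other receptors and ligands, Jag2, a Jagged ligand, was at 9.67, 9.49 and 19.97 CPM across TG 1 to TG 3 and at 13.98, 12.85 and 39.0 CPM in WT. Each TG library lay below the WT libraries of its table, with a log2 fold change of -0.65 (SE 0.17, adjusted p = 0.222 in edgeR). DESeq2 called Jag2 (0.0454), as did edgeR without TG 2 (0.0466). Dlk1, a Delta-like protein that lacks the receptor-activating domain, was at 97.3 and 111 CPM in TG 1 and TG 3. In TG 2 it had 129 counts (5.12 CPM), close to the 128 counts (5.63 CPM) of WT 2. Its WT libraries were at 7.99, 5.63 and 20.2 CPM, and its log2 fold change was 2.76 (SE 0.90, adjusted p = 0.265 in edgeR), 3.24 without TG 2 (adjusted p = 0.00226) and 0.99 without TG 1 (adjusted p = 0.672). Dll4, a Delta ligand of vessels, had a log2 fold change of 0.50 (SE 0.22, adjusted p = 0.367).

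Of 9 genes that take up ligands or add sugars to receptors, 6 had higher and 3 lower fitted levels. Neurl1a, which helps ligand uptake, was at 55.2, 38.3 and 75.3 CPM across TG 1 to TG 3 and at 36.5, 34.2 and 48.0 CPM in WT, so that each TG library exceeded the WT libraries of its table. Its adjusted p was 0.287 in edgeR, and 0.0155 without TG 2. Lfng and Poglut1, the next by p, were at 0.83 (SE 0.40) and 0.25 (SE 0.16) on the log2 fold scale. Among 10 genes of receptor cleavage, Psen2, a catalytic subunit of gamma-secretase, averaged 24.3 ± 3.54 CPM in TG against a WT mean of 34.5 ± 9.98 CPM (SD, n = 3, log2 fold change -0.48, adjusted p = 0.246 in edgeR). Aph1b and Ncstn, which encode other subunits of that enzyme, were at log2 fold changes of 0.41 (SE 0.17) for the first and 0.23 (SE 0.19) for the second.

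Of 9 inhibitors and turnover genes, Dtx4, a Deltex ubiquitin ligase, was at 18.7, 13.7 and 29.3 CPM across TG 1 to TG 3 and at 8.91, 10.4 and 9.15 CPM in WT. The groups did not overlap, and the log2 fold change was 1.05 (SE 0.26, adjusted p = 0.215 in edgeR). DESeq2 called Dtx4 (0.00776), as did edgeR without TG 2 (0.0120). Dtx1 and Dtx2 differed by 0.61 (SE 0.25) and -0.38 (SE 0.16) log2 units. Among 13 genes of the nuclear complex, Tle1, a Groucho corepressor that HES factors recruit, was at 87.8, 57.9 and 99.7 CPM in TG and at 39.5, 44.97 and 48.2 CPM in WT. Its groups did not overlap either (log2 fold change 0.88, SE 0.19, adjusted p = 0.199 in edgeR, 0.00317 in DESeq2 and 0.00361 in edgeR without TG 2). Tle4, a related corepressor, differed by 0.90 log2 units (SE 0.38). The median of the nuclear complex was -0.00, near the -0.01 of all genes.

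Other genes of the HES and HEY family showed no common direction. Of the 5 tested, Hey1, a Notch target of vessels, was at 3.69, 1.79 and 4.15 CPM across TG 1 to TG 3 and at 1.35, 1.76 and 1.62 CPM in WT (log2 fold change 0.997, SE 0.37, adjusted p = 0.303 in edgeR). Heyl was at 0.81 (SE 0.38) and Hes6, which counters HES1, at -0.29 (SE 0.19) on the same scale. Hes2 had 0 counts in all 6 libraries, and Hes3 and Hes5 had at most 6 and 2 counts.

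Genes known to act downstream of Neurog3 differed little. Of the 13 tested, 9 were fitted higher and 4 lower, with a median log2 fold change of 0.14. Myt1, a zinc-finger factor, was at 100.1, 96.5 and 139.6 CPM in TG and at 90.1, 81.7 and 83.7 CPM in WT (log2 fold change 0.38, SE 0.16, adjusted p = 0.348 in edgeR). Gadd45a and Amotl2 differed by 0.47 (SE 0.20) and 0.55 (SE 0.26) log2 units. Insm1 and Neurod1, direct targets of NEUROG3, had 0.17 and 0.05. Pax4, an early target, had 0 counts in every library.

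Pdx1 counts among the beta-cell markers too, and Sox10 below among the Schwann markers. Among the 12 tested genes of multipotent progenitors, Pdx1 and Gata6 lay on opposite sides. Pdx1, which beta cells also need, was at 74.1, 88.9 and 94.4 CPM in TG and at 143, 143 and 141 CPM in WT. Its log2 fold change was -0.73 (SE 0.14, adjusted p = 0.199 in edgeR, 0.000894 in DESeq2). Gata6 was at 37.2, 15.9 and 65.4 CPM across TG 1 to TG 3 and at 12.5, 15.1 and 20.1 CPM in WT (log2 fold change 1.2, SE 0.34, adjusted p = 0.237 in edgeR, 0.0180 in DESeq2). Bicc1 followed at 0.50 (SE 0.16), with 14.03 to 14.5 CPM in WT and 17.7 to 22.2 CPM in TG.

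Of the 9 other SOX genes tested, 8 were fitted higher, where 48.1% of all genes were, and none passed in edgeR on all libraries. Their median log2 fold change was 0.50, and 4 were higher at an unadjusted p under 0.05 (Sox10, Sox13, Sox17 and Sox7), where 9.32% of all genes were. Sox10, a Schwann-cell gene, was at 1.37 (SE 0.35) on the log2 scale, Sox13 at 0.73 (SE 0.22) and Sox17, a vessel gene, at 1.06 (SE 0.37), with adjusted p of 0.222, 0.246 and 0.283 in edgeR. Sox12, the remaining SoxC gene, was at 0.42. Serotonin genes, some of which FEV controls in neurons, were mixed. Ddc, which makes serotonin and dopamine from their precursors, was at 511, 579 and 633 CPM in TG and at 424, 313 and 257 CPM in WT (log2 fold change 0.81, SE 0.23, adjusted p = 0.234 in edgeR, 0.0178 in DESeq2). The vesicle transporter Slc18a1 was at 1.16 (SE 0.48), or 0.37 without TG 1 (adjusted p = 0.561). Maob, which breaks amines down, was at -1.30 (SE 0.56), or -2.33 without TG 2, where edgeR called it (adjusted p = 0.00223). Over all lists, 92 genes outside the 10 were tested, and an unadjusted p under 0.05 was found for 16 that were higher and 3 that were lower (9.32% and 4.81% of all genes). DESeq2 called 6 of the 92 (6.52%, against 4.68% of all genes), namely Jag2, Dtx4, Tle1, Pdx1, Gata6 and Ddc, and limma-voom called 0. Without TG 2 edgeR called 18 of the 92 (19.6%, against 13.2% of all genes). Besides Jag2, Dlk1, Neurl1a, Dtx4, Tle1 and Maob these were Psen2, Dtx1, Tle4, Hey1, Amotl2, Pdx1, Gata6, Bicc1, Sox7, Sox10, Sox13 and Sox17, with adjusted p from 0.00195 for Gata6 to 0.0421 for Bicc1.

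**Figure D4:**
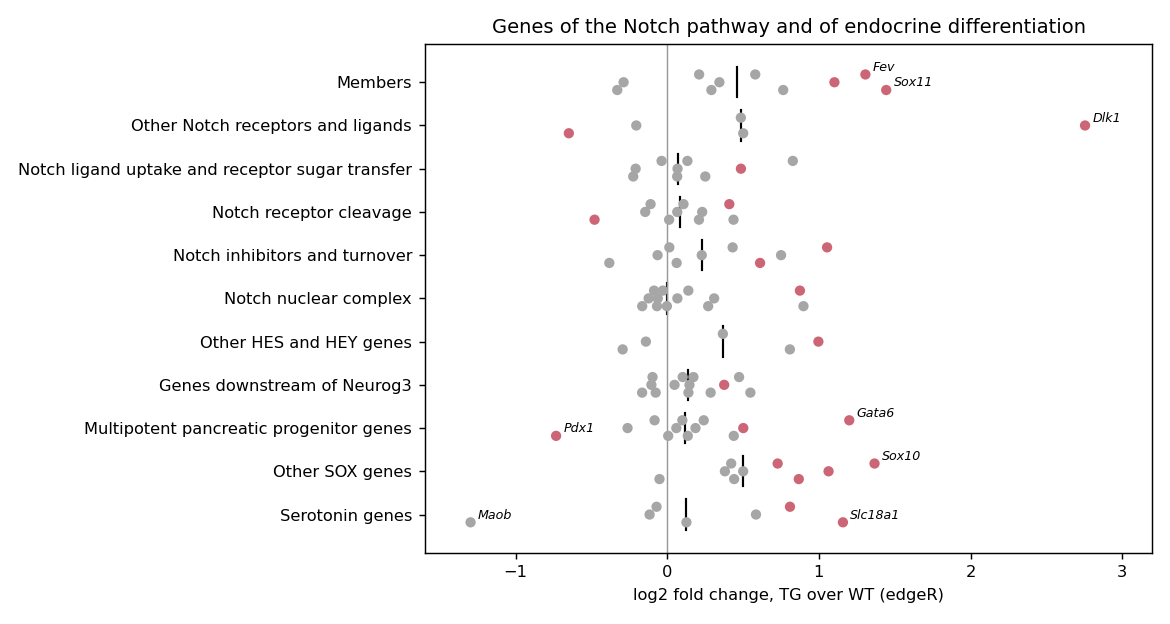
Log2 fold change of TG over WT (horizontal axis) for each tested gene of the 10 and of the pathway lists, 1 point a gene, red where the unadjusted p was under 0.05, with a bar at the median of each list. Medians lie between -0.00 for the nuclear complex and 0.50 for other SOX genes, while the 10 genes have 0.46.

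Markers of other islet and pancreas cells differed between the same libraries. The summed duct markers, 14 genes among them Krt19, Spp1 and Tspan8, ran from 1486 to 2071 CPM in WT and from 2625 to 3389 CPM in TG, without overlap. Summed stellate and fibroblast markers were at 29.3 to 85.9 CPM in WT and at 188, 37.2 and 159 CPM across TG 1 to TG 3, so that TG 2 lay in the WT range as it did for Fev. Endothelial markers summed to 742 CPM in TG 3, against 346 to 537 CPM in WT and 409 and 375 CPM in TG 1 and TG 2. Schwann markers summed to 13.5 to 23.5 CPM in WT and 18.5 to 36.2 CPM in TG, and markers of alpha, delta and PP cells to 25637 to 35288 CPM in WT and 40694 to 71074 CPM in TG. Acinar markers followed the table, at 128 and 279 CPM in WT 3 and TG 3 and 3144 to 6895 CPM in the first table. Myeloid markers summed to 87.3 to 199.6 CPM in WT and 115 to 210 CPM in TG, and lymphoid markers to 9.07 to 10.5 CPM in WT and 5.04 to 8.59 CPM in TG. None of the listed markers was at 0 in all 6 libraries. With the endothelial sum as a covariate the log2 fold change of Sox4 was 0.87, of Fev 1.197 and of Sox11 1.61, and with the acinar sum 1.005, 1.29 and 1.56. With the duct sum as a covariate, Fev was at -0.72 (SE 1.43), Sox4 at -0.35 (SE 0.76), Sox9 at -1.63 (SE 1.26) and Sox11 at 0.57 (SE 1.46), none past the threshold. Duct content and genotype cannot be told apart where their values do not overlap. The sums of alpha, delta and PP markers and of lymphoid markers did not overlap between the genotypes either, so the same holds for them. The part of beta, alpha, delta, PP, lymphoid, myeloid, stellate and Schwann cells in the levels of the 10 genes was not tested.

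**Figure D5:**
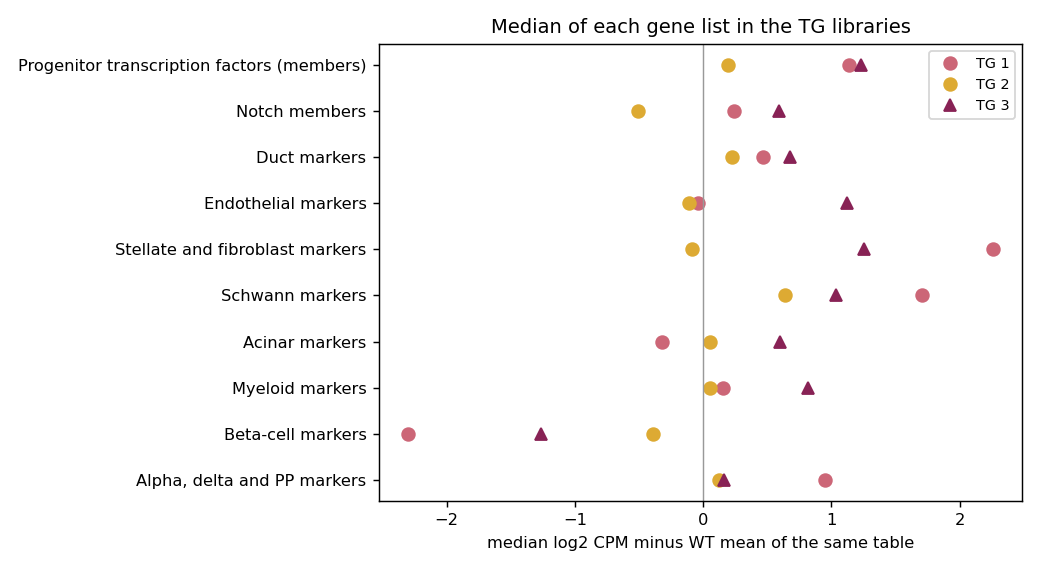
Median log2 CPM of each gene list in TG 1, TG 2 and TG 3, minus the WT mean of the same table. Progenitor factors lie at 1.14, 0.19 and 1.23, beta-cell markers at -2.30, -0.39 and -1.27, and stellate and fibroblast markers at 2.26, -0.09 and 1.26.

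Within the 10 genes, Neurog3 and Fev had the most alike profiles over the 6 libraries after centring on each table (Pearson r = 0.97), followed by Notch2 and Jag1 (0.95) and Notch2 and Sox9 (0.95). Dll1 ran opposite to Neurog3 (r = -0.82) and Fev (r = -0.80). These describe 6 libraries that share their depth and cell mix, and the same holds for the search over 11172 genes with a mean of at least 5 CPM. The closest genes were Ehbp1 and Arrb1 for Neurog3, Nelfcd and Gfra1 for Fev, Reep4 and Pxmp4 for Sox4, mt-Tp and AI846148 for Sox11, and Pnmal2 and Dgkz for Sox9. They were Zhx3 and Stk16 for Notch1, Wdfy3 and Gm16286 for Notch2, Rev3l and Ulk4 for Dll1, and Arhgap31 and Zfp362 for Jag1, and Pla2g2d was among those of Hes1. Their r ran from 0.992 to 0.9995. As the highest among 11172 genes over so few libraries, values near 1 do not show a link between the genes.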

How the data were processed

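The 6 libraries were grouped by the genotype in the labels. Per the submitters' processing notes, the tools and build include CASAVA 1.8, HISAT2 and GRCm38 (mm10). No source used here names the read counter, the strand setting or the annotation release. The authors deposited raw whole-number counts of 47643 genes. The deposited FPKM, made separately for the 2 sets of tables, lay on the same side of the WT mean as the CPM for 10 of 10 genes in TG 1, TG 2 and TG 3, and the annotated FPKM tables gave gene names, lengths and positions.

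Both sets of counts were joined on gene ID. A quasi-likelihood F-test in edgeR 4.0.16 (R 4.3.3), with TMM scaling, robust estimation off, and table and genotype as terms, was run on the 16072 genes kept by filterByExpr. The p-values were adjusted over them by the Benjamini-Hochberg method. CPM were scaled to the TMM-adjusted library size. Each SE was derived from the fold change on the log2 scale and the root of its F statistic. Log2 CPM used a prior count of 2. DESeq2 1.42.0 and limma-voom (limma 3.58.1) were alternatives. The fits were also run on simulated counts with known changes, and the outcome is not given here. Those counts held no effect of the table and no library set apart from its group, so they do not test the fits under such conditions. Intervals of single libraries are 95% exact Poisson intervals and cover counting error only. No 2 libraries matched within sampling noise (lowest chi-square 31.6, for WT 1 and TG 2, per degree of freedom over 13065 genes with at least 20 counts everywhere). 3′ UTRs and overlapping genes came from GENCODE M21, with 1 transcript per gene, the protein-coding transcript with the longest 3′ UTR, and the miRNA and promoters from RefSeq.

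The 10 genes and the 21 gene lists were chosen with earlier results of these data known. All 10 are named, with the 3 genes of smallest p per pathway list and the 2 closest profiles per gene among those with a mean of at least 5 CPM. Insm1, Neurod1, Pax4, Sox7, Sox12, Hes2, Hes3 and Hes5 were named after their values were seen. Some results that the rule names are not reported here.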

Additional observations from a re-analysis of the deposited data

How the results depend on the processing

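Adjusted p under 0.05 was reached by 0 of all genes, 0 of the 10 genes and 0 of the pathway genes in edgeR, and the counts moved with 3 choices. DESeq2 called 752 genes, 1 of the 10 (Sox4) and 6 pathway genes. Without the low-count filter edgeR called 1672 genes, 3 of the 10 (Fev, Sox4 and Sox11) and 14 pathway genes. These 14 were 12 of the 92 tested (13.0%, against 9.31% of all genes that pass the filter), with Tph1 and Sox8, which lie below the filter. In that fit the log2 fold changes of Fev, Sox4 and Sox11 were 1.29, 1.09 and 1.43, near those with the filter. Their SE were 0.23, 0.19 and 0.42, against 0.47, 0.32 and 0.49 with the filter. With each library left out in turn the counts ran from 0 to 2188 for all genes, 0 to 3 for the 10 (Fev, Sox4 and Sox9) and 0 to 19 for the pathway genes, each highest without TG 2 (Tph1 among the 19) and 0 without any other library. The table by genotype interaction was called in 0 genes (366 at an unadjusted p under 0.05), and in 137 without the low-count filter, with none of the 10 among them. No paired analysis was possible because the labels give WT and TG no shared replicate numbers.

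The summed duct markers do not overlap between the genotypes, so as a covariate they and the genotype can hardly be separated: the SE of Sox4 was 0.76, against 0.32 without it, and none of the named genes passed. With it, log2 fold changes changed sign in 7 of the 10 genes: Neurog3 -0.36, Fev -0.72, Sox4 -0.35, Sox9 -1.63, Notch2 -1.62, Jag1 -0.89 and Hes1 -0.41. So did 17 of the named pathway genes: Dlk1 -4.11, Dll4 -0.49, Neurl1a -0.37, Aph1b -0.027, Ncstn -0.79, Dtx1 -0.72, Dtx2 0.077, Tle4 -0.95, Hey1 -0.46, Hes6 0.42, Myt1 -0.087, Amotl2 -0.38, Gata6 -0.68, Sox13 -0.32, Sox17 -0.041, Slc18a1 -0.94 and Maob 1.19. The other sign changes were in Notch2, which ran from -0.12 without TG 1 to 0.72 without TG 2, and in Jag1, which was -0.031 in the first table alone and ran from -0.037 without WT 3 to 0.56 without WT 2, with negative values also without TG 1 and without TG 3. Over the 17 alternatives the 10 genes kept direction and side of the threshold in 151 of their results, changed sign in 12 and passed the threshold in 7. The fits without WT 3 and without TG 3 leave no comparison of genotypes within the second table. They repeat the fit of the first table alone and are not separate checks, which holds for the sign changes of Jag1 in these fits as well. At 10 to 42 counts in 5 libraries, depth limits Sox11 most.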

Other observations

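Several genes of the lists lay below the filter on low counts and entered no test in the fit on all libraries, and their counts are given as read, named after their values were seen. Tph1, the enzyme that limits serotonin synthesis outside the brain, had 1, 1 and 5 counts across WT 1 to WT 3 and 99, 3 and 17 across TG 1 to TG 3. Sox8, a close relative of Sox9, had 1, 4 and 1 counts in WT and 56, 0 and 8 across TG 1 to TG 3. Sox2 had 4, 3 and 9 counts in WT and 15, 7 and 19 in TG. In edgeR, Tph1 was called without TG 2 and without the filter, and Sox8 without the filter. For Tph1 and Sox8, TG 1 held most of the reads and TG 2 was close to WT. Ptf1a, a factor of acinar and early pancreatic progenitor cells, had 7 and 7 counts in WT 1 and WT 2, 1 and 8 in TG 1 and TG 2, and 0 and 1 in WT 3 and TG 3, so its reads lay mainly in the first table, where acinar markers were also higher. Onecut1, a progenitor factor upstream of Neurog3, had 0 to 3 counts in 5 libraries and 9 in TG 3.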
